A study of Mus musculus with 3 samples.

Results

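Broad JunD domains are the widest regions of JunD enrichment found by chromatin immunoprecipitation and sequencing (ChIP-seq) in mouse induced regulatory T cells. They were chosen by peak width, as the JunD peaks wider than 1000 bp, leaving out a stretch of chromosome 13 from 21800000 to 23900000. This gave 447 domains of 5237 JunD peaks, or 8.54% of the list, and they covered 650 kb, or 19.2% of its length. A further 38 JunD peaks over 1 kb lay in the stretch left out. The rule uses a measured value, the width of a JunD peak, so the width and JunD score of the domains are given as descriptions and support nothing.

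Induced regulatory T cells arise when CD4+ T cells are activated in a dish together with TGF-β, a cytokine that turns on the regulatory programme. All groups came from the spleen of wild type C57BL/6 mice, 8 to 12 weeks old, and the sorted CD4+ T cells were kept for 4 days on plates coated with antibodies to CD3ε and CD28, in medium with TGF-β. JunD ChIP, BACH2 ChIP and input made up 3 libraries, 1 for each group. Only the ChIP peak lists were used, not the input. The labels do not say how many mice were pooled, and they name a pair of JunD catalogue antibodies without saying which gave the library. With 1 library per factor there is no replicate error, so no difference below was tested against one, and the read depth behind the peaks is unknown.

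JunD is a subunit of AP-1, a dimeric transcription factor of the basic leucine zipper family that is switched on when T cells are activated. BACH2 is a repressor of the same family, which pairs with small MAF proteins, binds sequences that overlap those of AP-1 and is known for keeping T cells from turning into effector cells. A sequence-specific factor usually gives a narrow peak with its summit at the bound site. A wide peak is a run of enriched windows with no gap long enough to split it, and the summit of a second factor shows where inside that run its own signal was highest.

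Domain width had a median of 1246 bp with quartiles of 1106 and 1507.5 bp, and the widest spanned 6491 bp. Most were not far over the threshold, since 332 were at most 1.5 kb wide, 73 were wider than that and up to 2 kb, and 42 were over 2 kb, of which 15 were over 3 kb. The authors' JunD score, whose scale is not stated, had a median of 170 (116 to 284) and ran from 52.2 to 2873. Over all JunD peaks the median score was 81.6, and in peaks of 751 to 1000 bp it was 109. Broad domains made up 50 of the 100 highest-scoring JunD peaks, but 48 domains scored in the weaker 50% of the list. Spearman's rho between width and score was 0.39 across the 447 domains, which are neighbours in 1 library and not replicates.

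**Figure D1:**
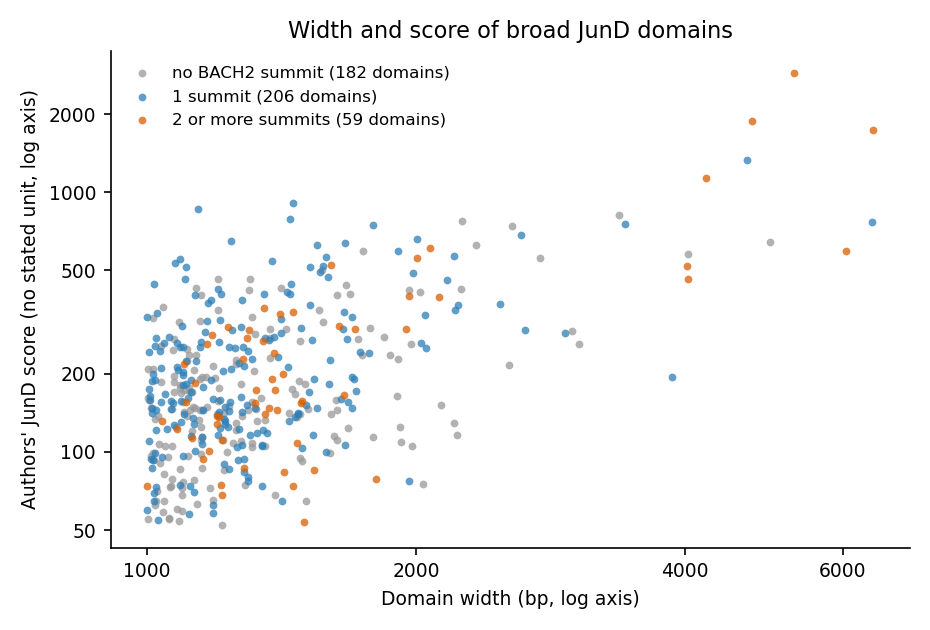
Each point is 1 of the 447 broad JunD domains, with its width in bp on the x axis and the authors' JunD score on the y axis, both on log axes, coloured by the number of BACH2 summits inside. The 10 widest domains score from 465 to 2873, while domains near 1000 bp spread over most of the range below that.

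Values on either side of the threshold ran into each other. The narrowest 3 domains were one of 1001 bp on chromosome 11 (99031865 to 99032865), which had a score of 330, one of 1002 bp on chromosome 7 (65647656 to 65648657), which had 73.9, and one of 1002 bp on chromosome 6 (97260540 to 97261541), which had 59.8. Each held a BACH2 summit, and the one on chromosome 7 held 2. The 3 peaks just outside were all 1000 bp wide, at 51704816 to 51705815 on chromosome 16, at 116084161 to 116085160 on chromosome 9 and at 22922976 to 22923975 on chromosome 2, with scores of 191, 114 and 104. The first 2 of these also held a BACH2 summit.

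The domains lay on all 19 autosomes, with 1 on the X chromosome. Chromosome 11 had the most, 53 domains, followed by chromosome 6 with 38, chromosome 3 with 37 and chromosome 2 with 36. As a share of a chromosome's JunD peaks, domains made up 13.6% on chromosome 3 and 13.2% on chromosome 6, against an autosomal median of 7.62%. On chromosome 13, outside the stretch left out, the share was 6.25% (13 of 208 peaks). The X chromosome domain (163643696 to 163645267, score 502) held no BACH2 summit, and the nearest one was 24013.5 bp from its centre.

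BACH2 summits, the points of highest BACH2 signal in each BACH2 peak, were found inside 265 of the 447 domains, or 59.3% (Wilson 95% interval 54.7 to 63.7). The same count over all JunD peaks, which include the domains and the 42 peaks of the chromosome 13 stretch, was 48.2%. In JunD peaks of 751 to 1000 bp it was 55.6% (52.0 to 59.3). With BACH2 peaks limited to the stronger 50% by −log10 q it was 38.9% of domains and 30.2% of all JunD peaks, and with those of at least 5-fold it was 35.3% and 31.7%. A wide interval has more room for a summit, so a window of fixed size was set beside this count. That window has the opposite limit, since it covers a smaller part of a wider interval. The JunD list has no summit, so the centre is the midpoint of the interval. A summit lay within 250 bp of the centre in 35.8% of domains (31.5 to 40.3), against 45.4% of all JunD peaks and 52.4% (48.7 to 56.1) of those of 751 to 1000 bp. With the stronger 50% of BACH2 peaks these shares were 21.9% of domains and 28.3% of all JunD peaks. Within 100 bp of the centre, the share was 15.2% of domains (12.2 to 18.8) and 35.8% of all JunD peaks. Within 500 bp, it was 54.4% of domains (49.7 to 58.9) and 48.4% of all JunD peaks. In peaks of 751 to 1000 bp, these shares were 26.3% (23.2 to 29.6) within 100 bp and 55.8% (52.1 to 59.4) within 500 bp. The share in domains was thus above that of the list when all of their width was counted. Its interval there overlapped that of peaks of 751 to 1000 bp. With BACH2 peaks of at least 5-fold, the interval for domains (31.1 to 39.9) included the 31.7% of the list. Within 100 or 250 bp of the centre, the share in domains was below that of the list. No test stands behind these differences, and the intervals cover the counting of peaks only.

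**Figure D2:**
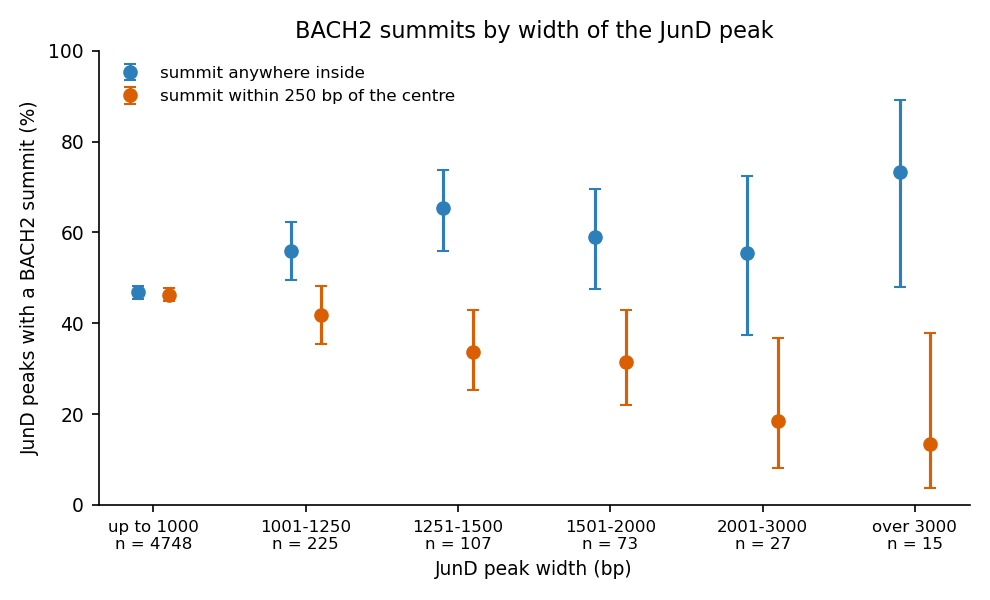
The y axis gives the percentage of JunD peaks with a BACH2 summit anywhere inside (blue) or within 250 bp of the centre (orange), by JunD peak width in bp on the x axis, with Wilson 95% intervals and the number of peaks under each class. From peaks up to 1000 bp to those over 3000 bp, the share within 250 bp of the centre goes from 46.3% to 13.3%. This window covers a smaller part of a wider peak. The share anywhere inside is 46.8%, then 56.0%, 65.4%, 58.9%, 55.6% and 73.3% from the narrowest to the widest class. The last is 11 of 15 domains, with an interval of 48.0 to 89.1.

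The share with a summit within 250 bp of the centre was lower in each wider class of domains. This window covers a smaller part of a wider domain, and the part of that in the fall was not tested. Among domains of 1001 to 1250 bp, 56.0% (49.5 to 62.3) held a summit and 41.8% (35.5 to 48.3) had one within 250 bp of the centre. For 1251 to 1500 bp the values were 65.4% (56.0 to 73.8) and 33.6% (25.4 to 43.0), and for 1501 to 2000 bp they were 58.9% (47.4 to 69.5) and 31.5% (22.0 to 42.9). Of the 27 domains over 2 and up to 3 kb, 15 held a summit and 5 had one within 250 bp of the centre. Of the 15 domains over 3 kb, 11 held a summit and 2 had one within 250 bp of the centre. The share of domains with a summit anywhere inside did not move steadily with width, and its intervals overlap across the classes.

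The share of domains with a BACH2 summit was higher in each class of higher JunD score. In 4 classes of equal size by JunD score, from highest to lowest, a summit was found in 69.6% (60.6 to 77.4), 61.6% (52.4 to 70.1), 57.7% (48.4 to 66.4) and 48.2% (39.2 to 57.4) of domains. Within 250 bp of the centre the shares were 39.3%, 42.0%, 32.4% and 29.5%, with intervals that overlap. Higher-scoring domains were also wider, and the part of width in this order was not tested. Between the score of a domain and the strength of its strongest BACH2 peak, Spearman's rho across 265 domains was 0.06 for the −log10 q-value and 0.11 for the fold enrichment.

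Most occupied domains held a single summit. There were 206 domains with 1 summit, 55 with 2, 2 with 3, 1 with 4 and 1 with 5, giving 331 summits in all. A pair or more was found in 59 domains, 13.2% (10.4 to 16.7), against 1.91% of all JunD peaks and 2.97% (1.95 to 4.49) of those of 751 to 1000 bp. Of the 100 JunD peaks in that 1.91%, 59 were these domains. The share in JunD peaks up to 1 kb was 0.67% (0.48 to 0.95). With the stronger 50% of BACH2 peaks alone, 2.91% of domains and 0.363% of all JunD peaks held a pair or more. Neighbouring summits within a domain were a median of 653.5 bp apart (interquartile range 487.75 to 838.5 bp), and none were closer than 252 bp. Of the 55 domains with exactly 2 summits, 50 had 1 on either side of the centre. Domains with 2 or more summits had a median width of 1389 bp. The part of width and spacing in this placing was not tested. Per kb of domain, there were 0.60 summits in domains up to 1.5 kb, 0.45 in those over 1.5 and up to 2 kb, and 0.30 in those over 2 kb. These rest on 237 summits in 332 domains, 55 in 73 and 39 in 42. A value per kb divides by length, and 206 of the 265 occupied domains held 1 summit. The part of length in these values was not tested.

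Inside the domains, summits were spread from the centre outwards. The median distance from the domain centre was 256 bp (interquartile range 128.25 to 408.5 bp), or 0.38 of the way from centre to edge (95% interval of the median 0.35 to 0.45). In JunD peaks up to 1 kb it was 45.5 bp, or 0.17 of the way (0.16 to 0.17). Of the 331 summits, 164 lay within 250 bp of the centre, 120 at over 250 and up to 500 bp, 32 at over 500 and up to 1000 bp, and 15 farther out. The outer 50% of the domain held 119 summits, or 36.0% (31.0 to 41.3). The median distance to the nearer edge was 394 bp, against 230 bp in JunD peaks up to 1 kb. Distances in bp are bounded by the width of the peak, and the part of width was not tested. In domains with exactly 1 summit, the median place was 0.31 of the way from centre to edge (0.281 to 0.355).

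When the way from centre to edge was cut into 5 zones of equal length, the density over all domains was 0.64, 0.66, 0.70, 0.44 and 0.11 summits per kb from the innermost to the outermost zone. In JunD peaks up to 1 kb it dropped at once from the centre, at 2.48, 1.19, 0.40, 0.11 and 0.051 per kb. In domains over 2 kb the densities were 0.23, 0.27, 0.34, 0.42 and 0.23 per kb, from 6, 7, 9, 11 and 6 summits, with few summits in each zone. Without the widest domain of chromosome 17, which held 5 of these 39, the densities were 0.20, 0.28, 0.28, 0.40 and 0.20. The density was lower beyond the edges of the 447 domains, with 0.022 per kb in the first 250 bp, 0.063 from 250 to 500 bp, 0.098 from 500 to 1000 bp and 0.057 from 5 to 10 kb.

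**Figure D3:**
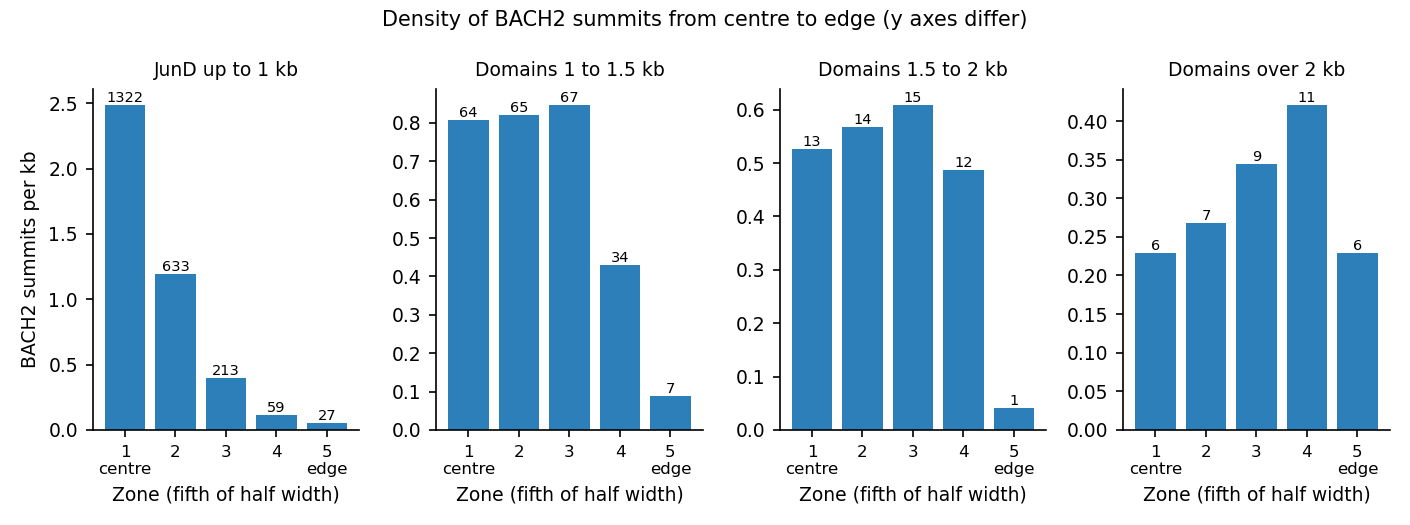
Bars give BACH2 summits per kb of JunD peak (y axis, which differs between panels) in 5 equal zones from the centre to the edge (x axis), with the number of summits above each bar, for JunD peaks up to 1 kb and for 3 width classes of domains. The innermost zone is the fullest in peaks up to 1 kb, while the inner 3 zones are nearly level in domains up to 2 kb (64, 65 and 67 summits, and 13, 14 and 15). In domains over 2 kb the zones hold 6 to 11 summits each.

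The BACH2 peaks with a summit in a domain had a median fold enrichment over the caller's background of 5.02 (interquartile range 3.79 to 7.34, 95% interval of the median 4.68 to 5.42). Those in JunD peaks up to 1 kb had 6.12 (5.94 to 6.27), and the whole BACH2 list 5.75 (5.68 to 5.79). Their median −log10 q-value was 14.1 (12.5 to 16.2), against 16.3 (15.3 to 17.4) in JunD peaks up to 1 kb and 11.8 (11.7 to 12.2) in the whole list. Peaks in domains were thus below the list median in fold and above it in −log10 q. They were also wider than the list, with a median of 356 bp against 267 bp. The lowest 20% of the BACH2 list by fold held 111 of the 331, or 33.5% (28.7 to 38.8), where the whole list has 20.1% by construction and peaks in JunD peaks up to 1 kb had 20.1% (18.5 to 21.8). The strongest 20% by −log10 q held 81, or 24.5% (20.2 to 29.4), where the whole list has 20.0% and peaks in JunD peaks up to 1 kb had 30.6% (28.7 to 32.5).

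BACH2 strength did not move steadily with domain width. The median fold was 5.14 in domains up to 1.5 kb, 5.03 in those over 1.5 and up to 2 kb, 5.30 in those over 2 and up to 3 kb and 3.73 in those over 3 kb. The median −log10 q in the same classes was 15.3, 13.9, 13.9 and 6.93. The lowest values were thus those of the 15 domains over 3 kb, which rest on 21 summits. The median fold of each narrower class was also below the 5.75 of the whole BACH2 list. Without the widest domain of chromosome 17, the 16 summits left in domains over 3 kb had medians of 4.13 for fold and 8.84 for −log10 q. The median JunD score was higher in each wider class, at 151, 235, 372 and 758. The scores of the factors are on different scales and are ranked only within their own lists.

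The 10 domains of highest score ran from 775 to 2873 and from 1140 to 6491 bp, and 8 of them held a BACH2 summit. First in the whole JunD list stood a domain of 5286 bp on chromosome 11 (87568785 to 87574070, score 2873). It held 2 BACH2 summits on the same side of its centre, at 632.5 bp (6.02-fold) and 2121.5 bp (3.73-fold). The BACH2 peak of the nearer summit was itself 1470 bp wide.

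The domain ranked 3 lay on the same chromosome (99004120 to 99008865, 4746 bp, score 1877). Both of its summits lay on the lower-coordinate side, 1777.5 and 1465.5 bp from the centre, and both were weak, at 2.34-fold and 3.63-fold. They ranked 9083 and 8509 of 9133 BACH2 peaks by −log10 q.

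The widest domain of all, ranked 5 by score, was on chromosome 1 (146090094 to 146096584, 6491 bp, score 1738). Its 2 summits sat toward opposite ends, 2430 bp below the centre (4.63-fold) and 2978 bp above it (4.24-fold). The second was 267 bp from the edge, and the 5408 bp between them held no other.

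The domain ranked 7, on chromosome 5 (143663213 to 143667902, 4690 bp, score 1327), held a single weak summit of 3.30-fold, 1573.5 bp below the centre. That ranked 9, on chromosome 2 (11563935 to 11568153, 4219 bp, score 1136), held a stronger one of 9.03-fold, 1740 bp below the centre and 369 bp from the edge, with a −log10 q of 62.1. Its other summit was 975 bp above the centre and had 4.78-fold enrichment. None of these 5 strongest domains had a summit within 250 bp of its centre.

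The remaining top-scoring domains were narrower. On chromosome 8 (129391082 to 129392221, 1140 bp, score 866), the single summit was 44.5 bp from the centre, with 17.6-fold enrichment and rank 75 in the BACH2 list. On chromosome 11 (87235721 to 87237166, 1446 bp, score 787), it was 80.5 bp from the centre (6.76-fold), and on chromosome 3 (96043077 to 96044534, 1458 bp, score 912) it was 377.5 bp away (5.94-fold). The other 2 held no summit. They lay on chromosome 6 (51407463 to 51410835, 3373 bp, score 818) and chromosome 5 (22937847 to 22940097, 2251 bp, score 775).

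**Figure D4:**
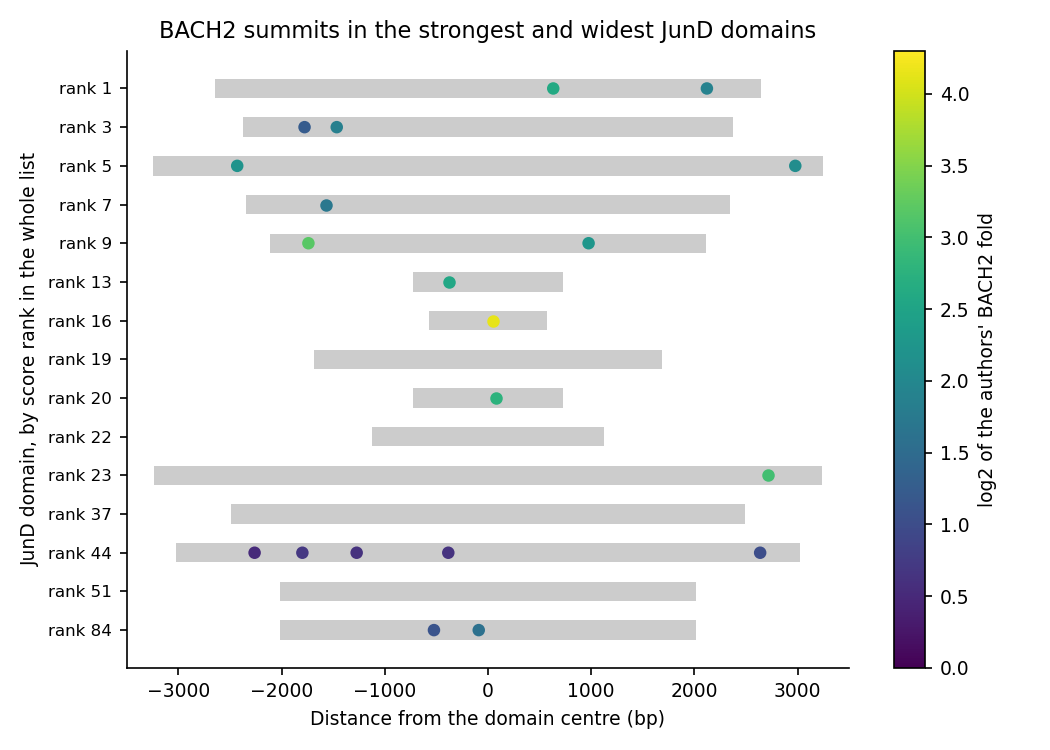
Grey bars are the 15 domains that are among the 10 of highest score or the 10 widest, drawn to scale by distance in bp from their centre (x axis) and ordered by JunD score rank in the whole list (y axis). Points are BACH2 summits, coloured by log2 of the authors' fold. In the 5 strongest domains (ranks 1 to 9) no summit is within 250 bp of the centre, and the domain of rank 44 holds 5 summits of low fold.

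The 10 widest domains were 4026 to 6491 bp wide, and 8 held a summit. The second widest, on chromosome 2 (58008282 to 58014748, 6467 bp, score 765), held 1 summit of 8.03-fold, 2710 bp from the centre. The third widest, on chromosome 17 (39979795 to 39985848, 6054 bp, score 595), held 5 summits, the most of any domain. Their folds were 1.43, 1.63, 1.53, 1.55 and 2.02 in order of position, and 1.43 is the lowest fold of the whole BACH2 list. On chromosome 3 (68589953 to 68593980, 4028 bp, score 465), a domain held 2 weak summits of 2.16-fold and 3.01-fold, 523.5 and 89.5 bp from the centre. Domains on chromosome 10 (96080483 to 96085459, 4977 bp, score 642) and chromosome 11 (99012178 to 99016203, 4026 bp, score 579) held none.

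Several domains with many summits were neither the strongest nor the widest. On chromosome 13 (30838938 to 30840740, 1803 bp, score 78.8), a domain of rank 2782 held 4 summits, of 4.11-fold, 2.72-fold, 4.47-fold and 7.86-fold in order of position. A domain on chromosome 8 (129371228 to 129373177, 1950 bp, score 298) held 3 summits between 3.26-fold and 4.52-fold. Another on chromosome 6 (15742897 to 15744244, 1348 bp, score 268) also held 3, the strongest of 8.33-fold at 127.5 bp from the centre. Further domains with 2 summits lay on chromosome 3 (96072350 to 96074424, score 608) and chromosome 10 (80139335 to 80141338, score 559).

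Domains up to 1.5 kb were 332 of the 447 and held 237 of the 331 summits. Among BACH2 peaks in domains, the 5 strongest by −log10 q lay in domains of this class, of 1023 to 1409 bp. The strongest was on chromosome 12 (domain 74942855 to 74943931, score 535), with 24.9-fold enrichment, rank 15 in the BACH2 list and 69 bp from the centre. Next came a 24.7-fold peak on chromosome 18 (65481694 to 65482716, score 189), 155 bp from the centre. A 17.9-fold peak on the same chromosome (3280682 to 3282090, score 339) was 305 bp from the centre, in a domain whose other summit had 3.89-fold. The fourth is the domain on chromosome 8 of rank 16 described above, and the last lay on chromosome 9 (107214957 to 107215991, score 245), with 18.6-fold at 163 bp. In 4 of these 5 a summit was within 250 bp of the centre.

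No BACH2 summit lay in 182 domains. These had a median width of 1204 bp and a median score of 149, against 1276 bp and 190 in domains with a summit. Their centres were a median of 10866 bp from the nearest BACH2 summit. A summit was within 5 kb of the centre in 52 of the 182 and within 10 kb in 84. The same distances were not worked out for other JunD peaks without a summit, so no comparison is made. The 5 of highest score were those on chromosomes 6, 5 and 10 given above and 2 more, on chromosome 17 (36054286 to 36056849, 2564 bp, score 744) and chromosome 8 (87183532 to 87185863, 2332 bp, score 628). The nearest summit was 85262 bp from the centre of the first, and 4976.5 bp from that of the last. Sites below the BACH2 caller's threshold are not in the list, so a domain without a summit is not shown to lack BACH2.

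Joining domains at most 50 kb apart gave 314 regions, of which 237 held 1 domain and 77 held 2 or more. The 77 held 210 of the 447 domains. Another JunD peak of any width was within 10 kb of 285 domains, or 63.8%, against 35.4% of all JunD peaks. It was within 1 kb of 136 domains, or 30.4%, against 11.9% of all JunD peaks. Domains are part of that list and are wider, and the difference was not tested.

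The largest groups held 7 domains each. On chromosome 3 (96023119 to 96074424), the 7 scored from 445 to 912, and 5 held a summit. Neighbours in this group were as close as 45 and 51 bp. On chromosome 6 (48625550 to 48697323), the 7 scored between 97.8 and 395, and 3 held a summit. A group of 6 on chromosome 2 (11556199 to 11577528) spanned only 21.3 kb, of which domains covered 13.1 kb. It included the domain ranked 9, and 5 of its 6 domains held a summit. Another group of 6, on chromosome 6 (129131661 to 129235500), had 4 with a summit.

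In the 5 groups of 5 domains, a summit was found in 5, 5, 4, 4 and 2 of them. On chromosome 11 (87235721 to 87276551) each of the 5 domains held exactly 1 summit, between 11 and 162 bp from the centre. On chromosome 9 (107197668 to 107237989) each of the 5 also held 1, between 99 and 536 bp from the centre. Groups on chromosome 11 (98977149 to 99065743) and chromosome 2 (57981940 to 58014748) each had 4 with a summit, and one on chromosome 7 (80681644 to 80740842) had 2. A group of 3 on chromosome 15 (66630780 to 66644486) and another on chromosome 8 (84290971 to 84299110) held no summit at all.

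Some domains also met a broad BACH2 peak. The BACH2 list held 27 peaks over 1 kb wide, of which 5 overlapped a broad JunD domain, 8 overlapped only JunD peaks up to 1 kb, 2 overlapped JunD peaks of the chromosome 13 stretch and 12 overlapped no JunD peak. The 5 are 18.5% (Wilson 95% interval 8.18 to 36.7), against 3.66% of all BACH2 peaks that overlapped a broad domain. The 15 that overlapped any JunD peak are 55.6% (37.3 to 72.4), against 29.3% of all BACH2 peaks. A wide BACH2 peak has more room to overlap. A BACH2 peak of 18.9-fold on chromosome 4 (32336711 to 32338352) met a domain of score 750. On chromosome 11, the peak at 87571729 to 87573198 had 6.02-fold and met the domain of score 2873. Peaks of 13.6-fold lay on chromosome 13 (5844087 to 5845289) in a domain of score 472, and on chromosome 18 (68386562 to 68387688) in one of score 183. The last, on chromosome 5 (53793188 to 53794377), had 18.7-fold and a domain of score 274. The widest BACH2 peak, on chromosome 2 (128253753 to 128255865, 2113 bp, 34.0-fold), overlapped a JunD peak up to 1 kb wide. These peaks were looked at after the main values were seen, and the counts were not tested.

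No gene was placed under a domain. The peak lists carry no gene names, and their coordinates are mm9, whereas the gene, promoter and miRNA tables used for names are GRCm38. Whether the domains sit on highly expressed genes was not analysed here, and no sequence is printed for the same reason.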

How the data were processed

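The submitters' processing notes name Bowtie 0.12.9 and the build mm9 (NCBIM37). How peaks were called (version, control, pooling of samples) is not given in the sources used here. For each BACH2 peak, read by the narrowPeak layout, the authors deposited a summit, a fold enrichment, −log10 values of p and q, and an integer score that was not used. The JunD list the authors deposited has 1 score per peak, on an unstated scale, and no summit, so the centre of the interval was used. Neither list gives read counts.

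Coordinates are mm9, counted from 1. A summit was inside a domain when it lay between the domain's ends. JunD peaks touching the chromosome 13 stretch were left out of the domains and of the classes up to 1 kb. Values over all JunD peaks include that stretch and the domains. Shares have Wilson 95% intervals and medians have order-statistic intervals. No test was run, since each group had 1 library. The domains and lists were chosen with earlier results of these data known. Those named are the 10 of highest score, the 10 widest, the 10 with most summits, the 5 strongest without a summit, the 5 with the strongest BACH2 peaks by −log10 q, and 3 on either side of the threshold. Groups of domains, the X chromosome domain and width classes were picked with their values known. Planned descriptions of genes and motifs needed mm9 annotation or sequence and were not run. The counting was tested on simulated data with planted summits. Python 3.11.15, numpy 2.4.6, pandas 2.3.3, scipy 1.17.1 and matplotlib 3.10.9 were used.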

Additional observations from a re-analysis of the deposited data

How the results depend on the processing

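Of 41 alternatives to 6 values, 22 stayed within the 95% interval of the value reported and 19 left it. The share of domains with a summit, 59.3%, became 38.9% with the stronger 50% of BACH2 peaks, 35.3% with BACH2 fold of at least 5, 65.6% in the stronger 50% of domains by score and 63.8% when domains within 10 kb were joined. The same 2 changes of BACH2 peaks gave 30.2% and 31.7% over all JunD peaks. The share with a summit within 250 bp of the centre, 35.8%, became 15.2% for 100 bp, 54.4% for 500 bp, and 46.0%, 26.1% and 16.7% for domains over 750 bp, 1.5 kb and 2 kb. With the stronger 50% of BACH2 peaks it was 21.9%, against 28.3% over all JunD peaks. Domains with 2 or more summits were 2.91% instead of 13.2% with the stronger 50% of BACH2 peaks. The median place of a summit on the way from centre to edge, 0.38, became 0.45 and 0.48 for domains over 1.5 and 2 kb and 0.31 in domains with exactly 1 summit. The median fold, 5.02, became 4.31 over 2 kb and 5.69 for the strongest BACH2 peak of each domain, and the median −log10 q, 14.1, became 12.2 over 1.5 kb, 11.1 over 2 kb and 17.7 for the strongest peak. Keeping the chromosome 13 stretch, leaving out the widest domain of chromosome 17 or leaving out the 51 domains in groups of 5 or more moved none of the values they were tried on out of its interval. The last of these, and leaving out the chromosome 17 domain for any value but the share with a summit, were chosen after seeing the data, as was BACH2 fold of at least 5 for the place of summits. No paired analysis was possible because only 1 library was made per factor. Nothing was tried for genes or motifs.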

Other observations

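Of the 38 JunD peaks over 1 kb in the chromosome 13 stretch that the rule leaves out, 33 held a BACH2 summit, or 86.8% (Wilson 95% interval 72.7 to 94.2), against 59.3% of the domains outside it. The 38 are neighbours in 1 stretch and not replicates. Their widths and JunD scores were not set beside those of the domains, and the difference was not tested.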
